A study of Mus musculus with 12 samples.

Results

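The data described here are the genotype comparison in attached kidney epithelial cells: the messenger RNA of JNK-deficient monolayers set against that of control monolayers. A gene was included if its level was at least 1 FPKM (fragments per length of transcript and per library) in either genotype, which 11803 of the 31026 entries of the authors' deposited table met. The rule set no condition on the difference between the genotypes. Near 1 FPKM inclusion is still tied to that difference, since a gene can enter through the genotype where it is higher alone. JNK-deficient cells are labelled Jnk1-/- Jnk2-/-, which the design text gives as Jnk1flox/flox Jnk2-/- Rosa-CreER. Control cells carry Rosa-CreER, a Cre recombinase that is active after tamoxifen, and have both Jnk genes. Both genotypes therefore carry the Cre allele, and both are of strain C57BL/6. Each genotype was sampled 3 times attached and 3 times after 4 hours in suspension, 12 samples in all, so the comparison rests on 3 JNK-deficient and 3 control samples. Neither the animals' age, nor how many isolates each genotype had, nor the tamoxifen schedule is stated in the labels. The authors pooled the samples of a group into 1 value per gene, so no spread between samples can be printed, and the depth per sample is unknown.

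JNK1 and JNK2, encoded by Mapk8 and Mapk9, are stress-activated protein kinases that are switched on by the kinases MKK4 and MKK7 and switched off by dual-specificity phosphatases. Their best known substrate is Jun, which pairs with Fos and ATF proteins to form the transcription factor AP-1. In attached epithelium the pathway is known for its part in wound closure, matrix remodelling, inflammatory signalling and the response to stress. When epithelial cells lose their attachment it contributes to anoikis, the form of cell death that the study set out to examine.

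A gene is called higher or lower here where the authors' deposited table lists a q-value below 0.05. By this rule 3364 of the 11750 genes tested differed between the genotypes (28.6%), 1718 higher (14.6%) and 1646 lower (14.0%) in JNK-deficient cells. Counts within the gene lists below are to be set against these shares. The other 53 genes were not tested by the authors, and 50 of them were small RNAs or unnamed transcripts. Of the called genes, 597 were higher and 493 lower by at least 1.5-fold, and 221 were higher and 194 lower by at least 2-fold. At least 4-fold differences were found for 34 higher and 39 lower genes. The median log2 fold change of all genes was -0.0034, with quartiles of -0.15 and 0.15. Among called genes the median size was 0.43 on the log2 scale, and the smallest was 0.21. All fold changes below are JNK-deficient over control, computed from the FPKM values of the authors' deposited table. At the lowest level the rule cuts through a continuum: 111 genes stood between 1 and 1.1 FPKM and 118 entries between 0.9 and 1 FPKM. Il1r1, an interleukin-1 receptor gene, stood just inside with 1.0004 FPKM in JNK-deficient and 0.647 FPKM in control cells, and Exd1 stood just outside with 0.998 and 0.820 FPKM.

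**Figure D1:**
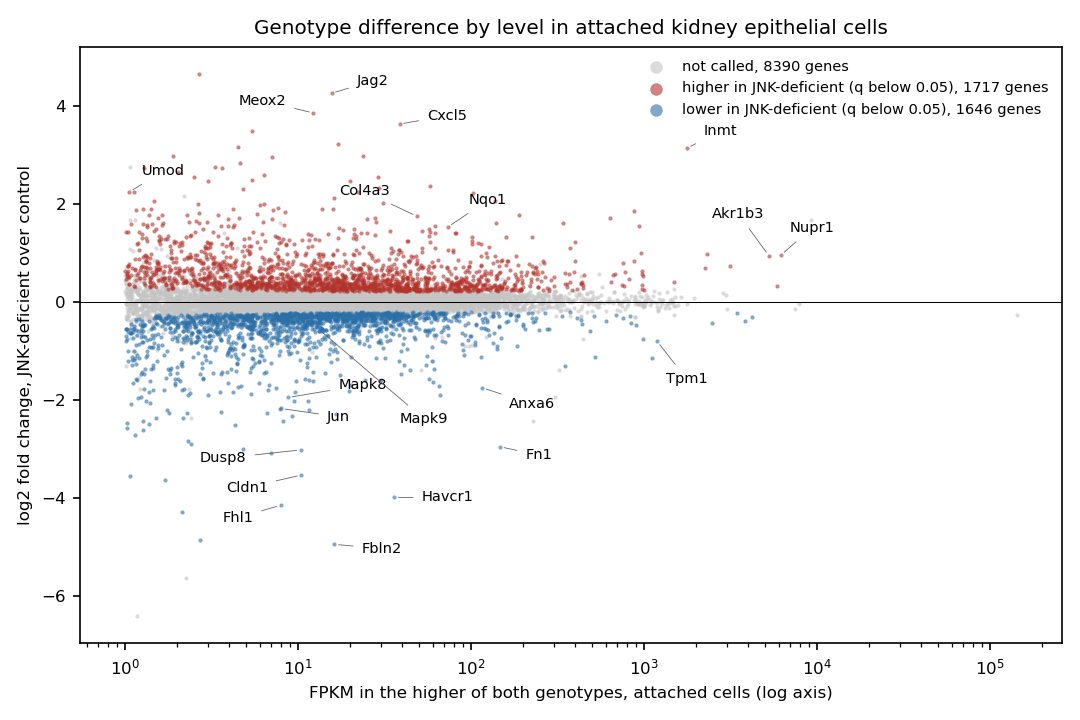
Log2 fold change of each gene in attached cells, JNK-deficient over control (vertical axis), against its FPKM in the higher of both genotypes (horizontal log axis). Each point is a gene, with 1 value per genotype and no spread between samples; genes at 0 in 1 genotype are not drawn. Red points are higher and blue points lower in JNK-deficient cells at a q-value below 0.05, and grey points were not called. Called genes lie on both sides of 0 at every level, and Fbln2 (-4.95) and Jag2 (4.25) stand far from 0 among those with at least 5 FPKM.

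The balance of directions changed with level. Among the 2477 genes below 5 FPKM, 36.5% were called, 415 higher and 488 lower, and their median size was 0.61 on the log2 scale. Among the 1013 genes at 100 FPKM and above, 28.0% were called, with 206 higher and 78 lower and a median size of 0.42. Highly expressed genes were more often higher than lower in JNK-deficient cells, and weakly expressed genes had the reverse balance.

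Before the genotypes were compared, the label of the cells was set against marker genes. Of 10 markers of kidney epithelium, 9 had at least 1 FPKM, among them Krt18 at 979 FPKM in JNK-deficient and 1006 FPKM in control cells and Pax8 at 101 and 97.5 FPKM. The summed level of these 10 markers was 2932 FPKM in JNK-deficient and 2899 FPKM in control cells. That sum covers differences in both directions. Of the 9 markers, 2 were called higher (Cdh16 and Pax2) and 2 lower (Cdh1 and Krt8). Each direction made up 22.2%, beside 14.6% higher and 14.0% lower of all genes tested. None of 8 fibroblast and none of 7 endothelial markers reached 1 FPKM, and each list summed to less than 0.5 FPKM in both genotypes. Podocyte markers summed to 3.04 FPKM in JNK-deficient and 7.16 FPKM in control cells, and smooth muscle markers to 3.17 and 3.42 FPKM, with 2 of 5 at 1 FPKM or more in each list. Their part in other results was not tested. Of 8 leukocyte markers, 3 reached the level, with sums of 17.0 FPKM in JNK-deficient and 16 FPKM in control cells, and most of that was Cd68, a lysosomal protein that other cells also make. Among these leukocyte markers Csf1r was called higher (1.46 and 0.538 FPKM), and its part in other results was not tested. Xist was at 34.1 FPKM in JNK-deficient and 30.3 FPKM in control cells, and the Y-linked genes looked up were at or near 0 in both. In bulk RNA of this kind, fewer cells that make a transcript and less transcript per cell cannot be told apart.

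Both targeted genes fell without being absent. Mapk8, on chromosome 14 of mm10 from 33377899 to 33447158, had 2.26 FPKM in JNK-deficient and 8.76 FPKM in control cells (log2 -1.95). Mapk9, on chromosome 11 from 49846751 to 49886421, had 8.89 and 12.8 FPKM (log2 -0.52). The authors' deposited table gives q = 0.000347 for each. Mapk10, the JNK3 gene, was below 0.1 FPKM in both genotypes. The table gives 1 value per gene and none per exon, so transcripts that lack the deleted exons are counted with the rest. That q-value is the lowest the authors' deposited table holds, and 1715 of the called genes share it, so it does not rank them.

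Among the 20 largest falls, Fbln2, which encodes the matrix protein fibulin-2 (chromosome 6, 91212764 to 91272540), was at 0.524 FPKM in JNK-deficient and 16.2 FPKM in control cells, 31.0-fold lower. Havcr1 (chromosome 11, 46740223 to 46779578), whose product KIM-1 appears on injured tubule cells, was at 2.26 and 36.0 FPKM, 15.9-fold lower. Cldn1, a sealing claudin of tight junctions, was at 0.899 and 10.4 FPKM (log2 -3.54). Of these 3 genes, Fbln2 and Cldn1 were below 1 FPKM in JNK-deficient cells and Havcr1 was above it.

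Other large falls lay in signalling and metabolism. Tbc1d9, a protein with a Rab GTPase-activating domain, was at 0.819 FPKM in JNK-deficient and 6.98 FPKM in control cells (log2 -3.09). Nkain1, a partner of the sodium pump, was at 1.53 and 8.20 FPKM (log2 -2.43). Amt, an enzyme of mitochondrial glycine cleavage, was at 3.42 and 16.7 FPKM (log2 -2.28). Gpr124, a receptor that works with WNT7 ligands, fell by 1.88, Ppp1r3e, which targets a phosphatase to glycogen, by 2.19, the tubulin gene Tubb2b by 2.28 and the cytokine gene Il24 by 1.84 on the log2 scale. Klhl1 (log2 -2.02), Prr15 (log2 -2.03) and the glycosyltransferase gene Galnt10 (log2 -1.83) complete this group with Dusp8, Dusp10, Jun, Fn1, Fst, Adamts1 and Mapk8, which are described with their families.

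Among the 20 largest rises, Jag2, a ligand of Notch receptors (chromosome 12, 112908590 to 112929495), was at 15.6 FPKM in JNK-deficient and 0.819 FPKM in control cells, 19.1-fold higher. The homeobox gene Meox2 was at 12.3 and 0.850 FPKM (log2 3.85), and the neutrophil-attracting chemokine gene Cxcl5 at 38.7 and 3.13 FPKM (log2 3.63). Inmt, a methyltransferase of small amines (chromosome 6, 55170627 to 55174990), was at 1767 and 201 FPKM, 8.79-fold higher, which made it a leading transcript of JNK-deficient cells. Setd4, of a methyltransferase family, was at 17.0 and 1.83 FPKM (log2 3.22).

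The remaining large rises included several products of differentiated epithelium. S100g, the vitamin D-dependent calcium binder calbindin-D9k, was at 23.8 FPKM in JNK-deficient and 3.03 FPKM in control cells (log2 2.98). Upk3b, a uroplakin of the urothelial and mesothelial surface, was at 102 and 21.9 FPKM (log2 2.22), and the mucin gene Muc20 at 137 and 32.7 FPKM (log2 2.06). The core-2 glycosyltransferase gene Gcnt1 (log2 2.23), the sulfotransferase gene Chst9 (log2 1.96) and Mxra8, a cell surface protein gene (log2 2.01), were higher as well. Nr1h4, the bile acid receptor FXR, was at 7.64 and 2.01 FPKM (log2 1.92), and Cdkn1c, which encodes the cell cycle inhibitor p57, at 6.34 and 1.59 FPKM (log2 2.0). Rtn1, a reticulon of the endoplasmic reticulum, was at 58.0 and 11.2 FPKM (log2 2.37), and Epb4.9, the actin-bundling protein dematin, at 6.35 and 1.06 FPKM (log2 2.58). Cbr2, Sult1d1, Egln3, Aldh1a1 and Cldn10 complete the 20 and are described with their families.

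**Figure D2:**
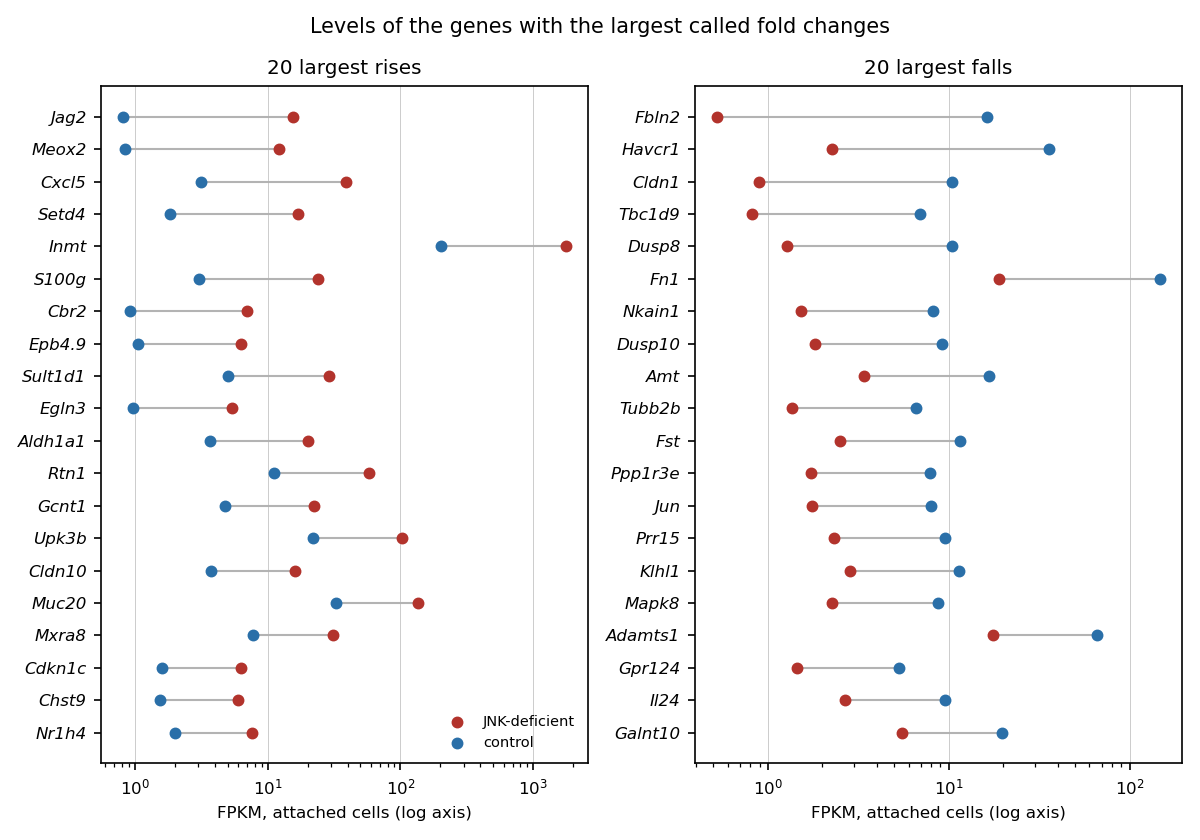
FPKM in attached JNK-deficient cells (red) and control cells (blue) for the 20 largest called rises (left) and falls (right), on a log axis; each point is the authors' single value for the group. Genes at the top of each panel have the largest fold change. Inmt, at 1767 FPKM in JNK-deficient cells, lies far to the right of the other rises, and Fn1, at 147 FPKM in control cells, far to the right of the other falls.

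Some genes were near absent in one genotype. Below 0.5 FPKM in JNK-deficient cells there were 34 called genes, and below 0.5 FPKM in control cells 18. Fhl1, a LIM domain protein of the cytoskeleton, was at 0.445 FPKM in JNK-deficient and 7.91 FPKM in control cells (log2 -4.15), and the xylosyltransferase gene Gxylt2 at 0.0928 and 2.70 FPKM (log2 -4.86). The inflammatory cytokine gene Il18 was at 0.321 and 2.41 FPKM (log2 -2.91), and Lfng, a glycosyltransferase that modifies Notch, at 0.321 and 2.31 FPKM (log2 -2.85). Syndecan-3 (Sdc3, log2 -1.79), the protease gene Tmprss11e (log2 -3.64), Nnmt (log2 -2.26), St8sia1 (log2 -2.37), Elmod1 (log2 -2.27) and Serpinb9b (log2 -2.20) were the others of the 10 with the highest control level. In the other direction, Renbp, a renin-binding epimerase of amino sugars, was at 5.40 FPKM in JNK-deficient and 0.480 FPKM in control cells (log2 3.49). Sostdc1, a secreted antagonist of BMP and WNT, was at 2.50 and 0.429 FPKM (log2 2.54). Npy (log2 2.97), Sncg (log2 2.06), Sgsm1 (log2 1.90), Slc7a3 (log2 1.77), Ccl7 (log2 1.78), Clrz (log2 1.71) and Cdh4 (log2 1.58) were also among the 10 with the highest level in JNK-deficient cells.

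In FPKM the largest gains were carried by a few very abundant transcripts. Nupr1, a small stress-induced nuclear protein, was at 6193 FPKM in JNK-deficient and 3193 FPKM in control cells, and Akr1b3, the aldose reductase that makes sorbitol, at 5262 and 2747 FPKM. Fxyd2 and Atp1b1, subunits of the sodium pump, were at 3148 and 1905 FPKM and at 953 and 481 FPKM, with the JNK-deficient value first in each pair. The small heat shock protein gene Cryab was at 2313 and 1177 FPKM, Igfbp7 at 2242 and 1389 FPKM, Psca at 874 and 242 FPKM, and S100a6 at 5857 and 4686 FPKM. Ddx5, an RNA helicase, was at 939 and 322 FPKM (log2 1.54). The largest losses in FPKM included the cytoskeletal genes Tpm1 (679 FPKM in JNK-deficient and 1190.3 FPKM in control cells), Myl12b (323 and 490 FPKM) and Krt8 (685 and 834 FPKM). Ly6a, a surface protein also known as Sca-1, was at 506 and 1116 FPKM, the galectin gene Lgals1 at 240.4 and 523 FPKM, the stress cytokine gene Gdf15 at 578 and 979 FPKM and Anxa1 at 140.4 and 347 FPKM. An entry named SH3d19 (log2 -0.44) and the mitochondrially encoded Cox2 (log2 -0.40) and Cytb (log2 -0.47) were the other losses.

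The phosphatases that switch MAP kinases off, themselves known targets of the pathways they restrain, were lower as a group. Of 8 MAP kinase phosphatase genes with at least 1 FPKM, 6 were lower (75%, against 14.0% of all genes) and 1 was higher, with a median log2 fold change of -0.61. The members that prefer JNK and p38 had the largest falls. Dusp8 (chromosome 7, 142079487 to 142095284) was at 1.27 FPKM in JNK-deficient and 10.4 FPKM in control cells, 8.14-fold lower. Dusp10 was at 1.82 and 9.19 FPKM (log2 -2.34), and Dusp16 at 6.25 and 17.5 FPKM (log2 -1.49). Dusp1, the immediate early phosphatase, was at 57.3 and 106 FPKM (log2 -0.88). Dusp4 (log2 -0.35) and Dusp7 (log2 -0.25) were lower by less, Dusp5 was not called (log2 0.06), and Dusp6, which acts on ERK, was at 75.6 and 59.5 FPKM (log2 0.35) and thus higher. Kinases upstream of JNK showed no such balance: 4 of 18 were higher and 2 lower, and Map2k4 (log2 -0.08) and Map2k7 (log2 0.05), the direct activators, were not called. Of 11 other MAP kinase and MAP kinase kinase genes 3 were higher and 0 lower, namely Mapk11 (log2 0.64) and Mapk12 (log2 0.48), which encode p38 forms, and Mapk3 (log2 0.31), which encodes ERK1.

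Of 14 AP-1 genes, 6 were lower and 2 higher (42.9% and 14.3%), with a median log2 fold change of -0.19. Jun (chromosome 4, 95049036 to 95052222) was at 1.76 FPKM in JNK-deficient and 7.96 FPKM in control cells (log2 -2.18), Atf3 at 3.15 and 9.73 FPKM (log2 -1.63) and Jund at 51.9 and 114 FPKM (log2 -1.13). Junb, at 137 and 135 FPKM, and Fos, at 4.54 and 4.07 FPKM, were not called. Maf (log2 -1.36) and Fosb (log2 -1.28) were lower at levels near 1 FPKM, and Fosl2 (log2 -0.52) was lower too. The higher members were Jdp2 and Mafk, and Atf2 was not called. Of 9 genes for other factors known as JNK substrates, Myc (log2 -0.54) and Trp53 (log2 -0.45) were lower and the other 7 were not called.

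Jun is known in other cells to be driven through its own promoter by Jun and ATF2 dimers, which bind an octamer that resembles the cyclic AMP response element. The windows of 3 lowered genes that each hold a match were chosen for printing. Of other lowered genes whose windows are not shown, Dusp8 held TGACGTCA, and Dusp16, Atf3 and Jund held none of the motifs named next. The 250 bases before the start in RefSeq's GRCm38.p6 annotation (the assembly also called mm10) are printed 5′ to 3′ on the gene's strand. Capitals mark matches, on either strand, to the octamer TGACATCA, to TGACGTCA or to the AP-1 heptamer TGANTCA. The windows are chr4:95052223-95052472 on the minus strand for Jun, chr1:184034131-184034380 on the plus strand for Dusp10 and chr17:26508473-26508722 on the minus strand for Dusp1.
Jun: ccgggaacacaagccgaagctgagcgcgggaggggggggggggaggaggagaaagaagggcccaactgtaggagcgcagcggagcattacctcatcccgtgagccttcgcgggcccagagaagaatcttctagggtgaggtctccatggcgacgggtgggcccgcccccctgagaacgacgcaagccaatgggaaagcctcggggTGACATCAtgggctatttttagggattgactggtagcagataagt
Dusp10: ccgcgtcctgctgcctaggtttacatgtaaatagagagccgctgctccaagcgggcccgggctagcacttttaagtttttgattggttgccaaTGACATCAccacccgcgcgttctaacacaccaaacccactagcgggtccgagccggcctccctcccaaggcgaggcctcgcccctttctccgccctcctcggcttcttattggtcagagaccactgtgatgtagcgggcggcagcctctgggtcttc
Dusp1: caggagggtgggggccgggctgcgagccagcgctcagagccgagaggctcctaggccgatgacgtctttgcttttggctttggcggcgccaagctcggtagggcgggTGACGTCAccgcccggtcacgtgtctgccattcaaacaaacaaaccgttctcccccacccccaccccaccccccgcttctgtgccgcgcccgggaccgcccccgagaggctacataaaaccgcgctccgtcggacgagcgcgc

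The windows of Jun and Dusp10 each held TGACATCA, and that of Dusp1 held TGACGTCA. Over promoter windows of 300 bases (250 before and 50 after a start), TGACATCA was found in 2.53% of 1501 windows of lower genes, 1.26% of 1586 windows of higher genes and 1.75% of all 10664 windows. TGACGTCA was found in 3.80% of windows of lower, 1.45% of windows of higher and 3.11% of all windows. The AP-1 heptamer was found in 5.86% of windows of lower, 5.99% of windows of higher and 4.92% of all windows. For genes that differed by at least 2-fold, the heptamer was found in 8.94% of 179 windows of higher and 4.82% of 166 windows of lower genes, TGACATCA in 0.559% and 1.81%, and TGACGTCA in 0.559% and 4.22%. These shares were not tested. Windows were at hand for 8283 of 10251 genes looked up by symbol or synonym, several starts of a gene count separately, and a match describes letters, not binding.

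Of 14 cytokine genes, 8 were lower and 2 higher (57.1% and 14.3%), with a median log2 fold change of -0.39. Beside Il18, the lower members were Csf3 (log2 -1.60), the alarmin gene Il33 (4.06 FPKM in JNK-deficient and 6.61 FPKM in control cells), Lif (19.1 and 28.9 FPKM), Csf1 (26.9 and 40.2 FPKM), Clcf1 (27.6 and 39.8 FPKM), Il11 (log2 -0.56) and Il1rn (log2 -0.25). The higher members were Tnfsf9 (34.4 and 20.6 FPKM) and Tnfsf15 (log2 0.70), both of the TNF superfamily.

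Of 14 chemokine genes, 7 were higher and 3 lower in attached cells, with a median log2 fold change of 0.39. These shares were 50% and 21.4%, beside 14.6% and 14.0% of all genes tested. In suspended cells 1 was higher and 4 were lower, with a median of -0.57; the difference between the states was not tested. In attached cells Ccl20, which attracts cells bearing CCR6, was at 139 FPKM in JNK-deficient and 45.7 FPKM in control cells (log2 1.61), and the monocyte attractant gene Ccl2 at 15.0 and 5.73 FPKM (log2 1.39). Cxcl5 had the largest rise (log2 3.63), and Ccl8 (log2 1.61), Ccl7 (log2 1.78), Cxcl3 (log2 0.69) and Cx3cl1 (log2 0.65) were higher too. Ccl7 (1.64 FPKM in JNK-deficient and 0.477 FPKM in control cells) and Cxcl3 (1.34 and 0.832 FPKM) reached 1 FPKM only in JNK-deficient cells. The level rule admitted both through the genotype where they were higher, and the 50% includes them. The related genes Cxcl1 (29.6 and 38.2 FPKM) and Cxcl2 (5.20 and 8.54 FPKM) were lower, as was Ccl5 (14.4 and 21.7 FPKM). Neighbouring members of the same chemokine family thus moved in opposite directions.

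Growth factor pathways held a few large differences among many small ones. Of 26 genes of the TGF-beta and BMP pathway, 10 were lower and 5 higher. In this list the secreted antagonists follistatin (Fst) and gremlin (Grem1) had the largest falls. Fst, which binds activins, was at 2.51 FPKM in JNK-deficient and 11.5 FPKM in control cells (log2 -2.20). Grem1, which binds BMPs, was at 0.0913 and 1.07 FPKM (log2 -3.55) and reached 1 FPKM only in control cells. The antagonist gene Sostdc1, which is outside this list, was higher (2.50 and 0.429 FPKM, log2 2.54). Ltbp1 (log2 -0.59) and Ltbp2 (log2 -0.64), which hold latent TGF-beta in the matrix, were lower, as were Smad1 (log2 -0.82) and the receptor gene Tgfbr2 (119.7 and 158 FPKM). Tgfb1 (log2 0.37), the co-receptor gene Tgfbr3 (log2 0.56) and the BMP target Id2 (223 and 135 FPKM) were higher.

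Of 21 WNT pathway genes, 9 were higher and 7 lower. The frizzled receptor genes Fzd5 (log2 -0.72), Fzd1 (log2 -0.68), Fzd2 (log2 -0.53), Fzd8 (log2 -0.42) and Fzd7 (log2 -0.31) were lower, while Fzd4 was higher (log2 0.24) and Fzd6 was not called (log2 0.08). The co-receptor genes Lrp5 (log2 0.43) and Lrp6 (log2 0.25) and the R-spondin receptor gene Lgr4 (log2 0.54) were higher. Among ligands, Wnt4 (log2 0.66), Wnt7b (178 FPKM in JNK-deficient and 141 FPKM in control cells) and Wnt9a (log2 0.25) were higher and Wnt7a (51.1 and 72.1 FPKM) was lower.

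In the Notch pathway 3 of 11 genes were higher and 3 lower (27.3% each). Jag2 (log2 4.25) was higher while Jag1 (24.1 FPKM in JNK-deficient and 30.1 FPKM in control cells) was lower, and the target gene Hey1 (log2 0.66) was higher while Nrarp (log2 -0.41) was lower. Of 13 EGF family genes 5 were lower and 3 higher: the ligand gene Ereg was at 4.12 and 1.79 FPKM (log2 1.20), Areg at 1.46 and 2.57 FPKM (log2 -0.81), and the receptor gene Egfr was not called (36.4 and 35.2 FPKM). The list of 12 genes for the FGF, HGF and PDGF group also held Igfbp3, an IGF-binding protein gene. In it Igfbp3 (log2 -1.57) and Pdgfd (log2 -0.86) were lower and Fgfr2 (35.6 and 20.9 FPKM) was higher. Of 31 genes for semaphorins, plexins, ephrins and Eph receptors, 11 were lower and 8 higher (35.5% and 25.8%). Sema7a (16.4 and 38.2 FPKM, log2 -1.22) had the largest fall, and Sema4a (log2 0.75) and Nrp2 (log2 0.73) had the largest rises.

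Of 19 genes of the matrix protease system, 9 were lower and 4 higher, with a median log2 fold change of -0.27. Adamts1, a protease of proteoglycans, was at 17.7 FPKM in JNK-deficient and 66.2 FPKM in control cells (log2 -1.91). Mmp14, the membrane-bound collagenase MT1-MMP, was at 42.6 and 90.6 FPKM (log2 -1.09), and Adamts5 (log2 -2.26), Adam12 (log2 -0.96) and Mmp11 (log2 -0.75) were lower too. Among the higher members, the urokinase receptor gene Plaur was at 239.8 and 154 FPKM (log2 0.64), the metalloproteinase inhibitor gene Timp3 at 111 and 71.9 FPKM (log2 0.63) and the protease gene Adam9 at 43.1 and 31.6 FPKM (log2 0.45). The plasminogen activator gene Plau itself was not called (636 and 727 FPKM).

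Basement membrane and matrix glycoprotein genes split, with 11 of 27 higher and 7 lower. Fn1, which encodes fibronectin (chromosome 1, 71585523 to 71662843), was at 18.9 FPKM in JNK-deficient and 147 FPKM in control cells, 7.78-fold lower. Tnc, the wound matrix protein tenascin-C, was at 0.172 and 1.14 FPKM (log2 -2.72), and nidogen-1 (Nid1), which links laminin to collagen IV, at 1.86 and 4.45 FPKM (log2 -1.26). On the higher side, the tubular basement membrane gene Tinag was at 27.9 and 10.8 FPKM (log2 1.37), and Tinagl1 at 159.8 and 94.6 FPKM (log2 0.76). Among laminin chain genes, Lama3 (54.0 and 42.3 FPKM) was higher, while Lamb3 was not called (83.3 and 80.7 FPKM). Fibrillin-1 (Fbn1, log2 1.56), Efemp1 (log2 0.96) and fibulin-1 (Fbln1, log2 0.80) were higher, so the fibulins did not move together.

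Collagen IV genes of the mature kidney network were higher together. Collagen IV forms the sheet of basement membranes, and its genes lie in head-to-head pairs that share a promoter region. Col4a3 was at 48.5 FPKM in JNK-deficient and 14.5 FPKM in control cells (log2 1.75), and its partner Col4a4 at 33.9 and 12.5 FPKM (log2 1.44). Col4a6 was at 14.5 and 8.58 FPKM (log2 0.76), and its partner Col4a5 at 35.0 and 24 FPKM (log2 0.54). Within each pair both genes were called higher, and all 4 were also called higher in suspended cells. The widely expressed pair Col4a1 and Col4a2 was below 0.3 FPKM in both genotypes. Over all 8 collagen genes with at least 1 FPKM, 5 were higher, the fifth being Col8a1 (78.2 and 38.5 FPKM, log2 1.02), and Col27a1 was lower (log2 -0.63).

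The deposited entries of Col4a4 and Col4a3 on chromosome 1 are 71 bases apart, and those of Col4a6 and Col4a5 on chromosome X 1342 bases apart. The stretch between the first pair is printed because both genes read outward from it; it holds chr1:82586830-82586940 on the minus strand, 5′ to 3′, with the bases between both entries in capitals.
Col4a4 and Col4a3: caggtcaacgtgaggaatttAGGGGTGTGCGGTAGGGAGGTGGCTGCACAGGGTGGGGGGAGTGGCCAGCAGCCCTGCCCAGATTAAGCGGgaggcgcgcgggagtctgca

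None of the motifs searched lay in the printed stretch, which says only that these letters are not in it.

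Of 13 genes of matrix crosslinking and collagen processing, 4 were higher and 5 lower, often with relatives on opposite sides. Tgm2, tissue transglutaminase, was at 7.15 FPKM in JNK-deficient and 1.96 FPKM in control cells (log2 1.86), while Tgm1, the transglutaminase of the cornified envelope, was at 1.90 and 3.93 FPKM (log2 -1.05). Loxl4, a lysyl oxidase, was at 51.7 and 19 FPKM (log2 1.44), while Loxl1 was at 2.67 and 4.84 FPKM (log2 -0.86). Among prolyl hydroxylases of collagen, P4ha1 (log2 0.59) and Leprel1 (log2 1.33) were higher and P4ha2 (log2 -0.60) and Leprel2 (log2 -0.94) lower. Of 12 integrin genes, 4 were higher and 2 lower (33.3% and 16.7%). Itgb6, whose product activates latent TGF-beta, was at 39.4 and 19.4 FPKM (log2 1.02) and Itga2 at 17.2 and 10.3 FPKM (log2 0.73). Itga6 was at 16.5 and 29.4 FPKM (log2 -0.83) and Itga5, of the fibronectin receptor, at 2.82 and 3.77 FPKM (log2 -0.42). The abundant chains Itgb1 (429 and 419 FPKM) and Itga3 (544 and 512 FPKM) were not called.

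Of 24 claudin and tight junction genes, 6 were higher and 3 lower (25% and 12.5%, beside 14.6% and 14.0% of all genes tested), and the most abundant, Cldn4, was not called (1271 FPKM in JNK-deficient and 1248 FPKM in control cells). Cldn1 (log2 -3.54), Jam2 (log2 -1.79) and Ocln (log2 -0.30) were lower. Cldn10, a paracellular ion channel of the loop of Henle, was at 16.1 and 3.72 FPKM (log2 2.11), and Cldn6 at 12.4 and 7.06 FPKM (log2 0.81). Of 25 cadherin, desmosome and gap junction genes, 9 were lower and 5 higher (36% and 20%). E-cadherin (Cdh1, 70.4 and 95.6 FPKM), N-cadherin (Cdh2, 60.0 and 106 FPKM), P-cadherin (Cdh3, 31.7 and 59.8 FPKM) and Cdh11 (6.56 and 15.4 FPKM) were lower, while kidney-specific cadherin (Cdh16, 678 and 459 FPKM) was higher. Cdh4 was also higher (1.43 and 0.478 FPKM, log2 1.58), and Cdh6 was not called (14.9 and 14.5 FPKM). Among gap junction genes, Gja1 (log2 -0.76) and Gjc1 (log2 -1.17) were lower and Gjb1 (log2 0.79) was higher.

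Transcription factors of the epithelial to mesenchymal transition did not follow a single direction: of 14 genes for these factors and their epithelial opponents, 5 were higher and 2 lower. The epithelial factor genes Grhl1 (log2 0.84), Ovol1 (log2 0.64), Klf4 (log2 0.60) and Elf3 (log2 0.39) were higher, Grhl2 (log2 -0.22) was lower, and Twist1 was lower (10.7 FPKM in JNK-deficient and 13.3 FPKM in control cells). Of 11 intermediate filament genes, 6 were lower and 2 higher. Vimentin (Vim, 3.76 and 5.84 FPKM), nestin (Nes, 18.4 and 28.4 FPKM) and Krt19 (178 and 234 FPKM) were lower, while Krt20, the keratin of umbrella cells, was higher (38.1 and 18.2 FPKM, log2 1.06), as was Krt80 (log2 0.91).

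Cytoskeletal genes under SRF control were divided, with 6 of 23 lower and 5 higher. Fhl1 (log2 -4.15), Tpm1 (log2 -0.81), zyxin (Zyx, 61.1 FPKM in JNK-deficient and 99.8 FPKM in control cells) and Actn1 (101 and 145 FPKM) were lower, while Tpm2 (16 and 8.18 FPKM) and vinculin (Vcl, 122 and 89.4 FPKM) were higher. Actb (log2 0.21) and Srf (log2 0.09) were not called. Of 21 YAP target genes 4 were higher and 3 lower, beside 14.6% and 14.0% of all genes tested, with none beyond 0.52 in size on the log2 scale among those called, F3 being that gene. Annexins, which bind membranes in the presence of calcium, were lower where they differed: of 19 annexin and S100 genes 6 were lower and 4 higher, the lower ones being Anxa6 (34.4 and 116 FPKM, log2 -1.76), Anxa1 (log2 -1.30), Anxa8 (log2 -0.61), Anxa3 (log2 -0.37), Anxa5 (log2 -0.29) and S100a16 (log2 -0.22). The 4 higher genes were S100g, S100a4 (141 and 97.2 FPKM), S100a6 and S100a1 (log2 0.27).

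Of 32 genes that mark segments of the nephron tubule, 9 reached 1 FPKM, and of these 6 were higher and 0 lower, with a median log2 fold change of 0.91. Aqp1, the water channel of proximal tubule and descending limb, was at 341 FPKM in JNK-deficient and 112 FPKM in control cells (log2 1.61). Umod, the uromodulin gene of the thick ascending limb, was at 1.06 and 0.224 FPKM (log2 2.24). Avpr2, the vasopressin receptor, was at 5.22 and 2.36 FPKM (log2 1.14), Scnn1a, a subunit of the sodium channel ENaC, at 6.22 and 3.31 FPKM (log2 0.91) and the potassium channel gene Kcnj10 at 1.38 and 0.747 FPKM (log2 0.89). Umod and Kcnj10 reached 1 FPKM only in JNK-deficient cells, so the level rule admitted them through the genotype where they were higher. The 66.7% higher of this list, beside 14.6% of all genes tested, includes them. The 6 higher genes belong to different segments. Of 5 markers of podocytes, the cells of the glomerular filter, 2 reached 1 FPKM and both were lower: Synpo (0.957 and 2.84 FPKM) and Podxl (2.05 and 4.31 FPKM). The defining proximal transporters Slc34a1 and Slc5a2 were under 1 FPKM, so the cells do not match any segment fully.

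Of 21 kidney developmental factor genes, 8 were higher and 3 lower. Beside Meox2, the Iroquois genes Irx1 (22.5 FPKM in JNK-deficient and 11.4 FPKM in control cells) and Irx2 (45.0 and 23.6 FPKM), which pattern the intermediate nephron, were higher, while Irx3 was lower (6.68 and 12.8 FPKM). Pax2 (124 and 92.7 FPKM), Sim1 (15.2 and 9.37 FPKM) and Foxc1 (33.8 and 18.4 FPKM) were higher. The general tubular factor gene Pax8 (log2 0.05) was not called. Of 28 Hox genes, 6 were higher and 2 lower, a share called of 28.6% as over all genes tested, with Hoxa11, of the posterior group, at 2.58 and 0.828 FPKM (log2 1.64) as the largest rise and Hoxb2 (log2 -0.67) as the largest fall. Of 11 genes of the SOX, GATA, FOX and TBX factors, 5 were lower and 3 higher, among them Sox11 (2.20 and 5.50 FPKM), Sox4 (38.9 and 67.8 FPKM) and Sox9 (9.72 and 14.5 FPKM) lower and Sox6 (7.51 and 3.55 FPKM) higher.

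Genes known from tubule injury and repair fell on both sides, 7 of 16 lower and 5 higher. Havcr1, Il18, Sox4, clusterin (Clu, 60.6 FPKM in JNK-deficient and 98.7 FPKM in control cells), Vim, Sox9 and Cd44 (9.43 and 13.3 FPKM) were lower. Lcn2, which encodes the injury marker NGAL, was at 373 and 175 FPKM (log2 1.09), Vcam1 at 3.22 and 1.21 FPKM (log2 1.41), and Krt20, Igfbp7 and Cd24a (778 and 513 FPKM) were higher too. Havcr1 and Lcn2, both used to report kidney injury, therefore differed in opposite directions.

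Genes of cell division were lower by small and even amounts. Of 42 mitosis genes, 30 were lower and 0 higher (71.4% lower, against 14.0% of all genes), with a median log2 fold change of -0.33. Of 40 DNA replication genes, 22 were lower and 0 higher, with a median of -0.31. The securin gene Pttg1 was at 18.8 FPKM in JNK-deficient and 32.8 FPKM in control cells (log2 -0.80), Prc1, of the spindle midzone, at 15.9 and 22.3 FPKM (log2 -0.49) and the helicase subunit gene Mcm3 at 19.3 and 28.8 FPKM (log2 -0.58). The remaining called genes of both lists had log2 fold changes between -0.54 and -0.22. In suspended cells 2 of the mitosis genes and 1 of the replication genes were called lower. Among G1 regulators 4 of 24 were higher and 3 lower (16.7% and 12.5%, beside 14.6% and 14.0% of all genes tested). The inhibitor genes Cdkn1c (log2 2.0), Cdkn2c (log2 0.37), Cdkn2d (log2 0.29) and Cdkn2b (log2 0.25) were the higher ones, and E2f8 (log2 -0.97), Myc (log2 -0.54) and Cdk4 (180.3 and 226 FPKM) the lower ones. Ccnd1 (log2 0.20) and Cdkn1a (log2 0.12) were not called.

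Cell death genes differed by less than 2-fold except where named. Of 7 BH3-only genes, 4 were lower and 1 higher. Pmaip1, which encodes Noxa, was at 39.9 FPKM in JNK-deficient and 70.9 FPKM in control cells (log2 -0.83) and Bcl2l11, which encodes Bim, at 5.42 and 9.43 FPKM (log2 -0.80). Bad was higher (56.4 and 40.4 FPKM, log2 0.48). Of 9 other BCL-2 family genes, Bok was higher (234 and 157 FPKM) and Bcl2 lower (6.29 and 7.49 FPKM), and Bax, Bak1, Mcl1 and Bcl2l1 were not called. Of 21 caspase, inhibitor and death receptor genes, 5 were higher and 4 lower, with Casp4, the inflammatory caspase-11 gene of mice, at 4.02 and 1.81 FPKM (log2 1.15) as the largest difference and Apaf1 (log2 -0.37), Cflar (log2 -0.33), Ripk3 (log2 -0.46) and Casp8 (log2 -0.28) on the lower side. Of 17 p53 target genes, counting Trp53 itself, 4 were lower and 1 higher (23.5% and 5.88%, beside 14.0% and 14.6% of all genes tested). Cdkn1a, Mdm2 (117 and 113 FPKM) and Ccng1 were not called.

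Detoxifying and antioxidant genes were higher. Of 30 NRF2 target and glutathione genes, 15 were higher and 2 lower (median log2 fold change 0.33), and of 19 glutathione S-transferase genes 11 were higher and 0 lower (median 0.37). The quinone reductase gene Nqo1 was at 73.5 FPKM in JNK-deficient and 25.5 FPKM in control cells (log2 1.53), Gclc, which starts glutathione synthesis, at 58.2 and 25.2 FPKM (log2 1.21) and the heme oxygenase gene Hmox1 at 61.9 and 29.0 FPKM (log2 1.09). Gstm2 was at 398 and 172 FPKM (log2 1.21) and Gstm1 at 755 and 437 FPKM (log2 0.79); these relatives are similar in sequence, so reads may be shared between them. The NRF2 gene itself, Nfe2l2 (153 and 140.1 FPKM), and Keap1 (23.4 and 25 FPKM) were not called, and the NRF2 targets Srxn1 and Prdx1 were not called either. The lower members were Osgin1 (log2 -0.65) and the plasma glutathione peroxidase gene Gpx3 (log2 -0.46).

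Of 25 methyltransferases, cytochromes and other detoxifying enzymes, 13 were higher and 3 lower. Beside Inmt, the retinal dehydrogenase gene Aldh1a1 was at 20.1 FPKM in JNK-deficient and 3.66 FPKM in control cells (log2 2.46), the sulfotransferase gene Sult1d1 at 29.1 and 4.99 FPKM (log2 2.54) and the carbonyl reductase gene Cbr2 at 7.04 and 0.911 FPKM (log2 2.95). Aldh1a2, of the same retinoic acid pathway, was at 81.7 and 58.3 FPKM (log2 0.49). Lower were Nnmt (log2 -2.26), Cyp2j6 (log2 -1.19) and Aldh2 (28.3 and 46.9 FPKM). The core of the antioxidant response element, TGACNNNGC, was found in 14.7% of promoter windows of higher genes, 15.0% of windows of lower genes and 14.5% of all windows.

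Genes of hypoxia and glycolysis were higher, 19 of 32 against 2 lower, with a median log2 fold change of 0.32. Egln3, an oxygen-sensing hydroxylase, was at 5.38 FPKM in JNK-deficient and 0.965 FPKM in control cells (log2 2.48), the vasodilator peptide gene Adm at 21.7 and 8.96 FPKM (log2 1.27), Aldoc at 11.4 and 5.22 FPKM (log2 1.12) and Vegfa at 123 and 61.6 FPKM (log2 0.99). The glycolytic enzyme genes Pfkl (log2 0.77), Aldoa (819 and 593 FPKM), Ldha (641 and 487 FPKM) and Pgk1 (log2 0.40) were higher by less, and Gapdh (log2 0.19) was not called. Car12 (log2 -0.89) and Bhlhe40 (log2 -0.32) were lower. Of 15 iron and metallothionein genes, 8 were higher and 1 lower: Fth1, the ferritin heavy chain, was at 879 and 496 FPKM (log2 0.82), Mt1 at 5.79 and 2.48 FPKM (log2 1.22), Mt2 at 2.27 and 0.670 FPKM (log2 1.76) and Steap3, an iron reductase, at 0.655 and 2.37 FPKM (log2 -1.86).

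Lysosomal genes were higher in 15 of 33 cases and lower in 1 (45.5% and 3.03%). The cathepsin genes Ctsc (26.5 FPKM in JNK-deficient and 13.7 FPKM in control cells), Ctsh (182 and 94.9 FPKM) and Ctsf (12 and 7.37 FPKM) and the legumain gene Lgmn (56.6 and 35.6 FPKM) had the largest called rises, while Ctsl was lower (173 and 229 FPKM) and Ctsd and Ctsb were not called. Of 24 genes of cholesterol synthesis and uptake, 11 were higher and 2 lower. Stard4 (log2 0.51) and Insig1 (log2 0.44) were higher, and Dhcr7, an enzyme of the last steps, was lower (4.32 and 6.31 FPKM). Of 25 fatty acid oxidation and PPAR target genes, 8 were higher and 3 lower, with Pdk4 (5.22 and 2.54 FPKM) and Ucp2 (60.5 and 37.1 FPKM) higher and Fabp5 (log2 -0.76) and Angptl4 (log2 -0.69) lower. Of 18 fatty acid synthesis genes 4 were higher and 2 lower, and Mlxipl, the carbohydrate-sensing factor ChREBP, was at 0.586 and 1.73 FPKM (log2 -1.57).

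Stress response genes of the endoplasmic reticulum and of amino acid supply differed one way. Of 34 integrated stress response genes 12 were higher and 0 lower, and of 26 unfolded protein response genes 8 were higher and 0 lower. The serine synthesis gene Psat1 was at 152 FPKM in JNK-deficient and 84.6 FPKM in control cells (log2 0.84), Cebpb at 9.20 and 5.37 FPKM (log2 0.78), Vldlr at 22.2 and 13.9 FPKM (log2 0.68) and Xbp1 at 119.7 and 77.2 FPKM (log2 0.63). The central factor gene Atf4 (252 and 240.2 FPKM), Ddit3 (log2 0.10) and the aminoacyl tRNA synthetase genes of the list were not called.

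Inflammatory regulators were mixed. Of 18 NF-kB genes and feedback inhibitors, 6 were higher and 5 lower (33.3% and 27.8%). Traf1 was at 1.42 FPKM in JNK-deficient and 4.68 FPKM in control cells (log2 -1.72). The feedback inhibitor genes Tnfaip3 (4.52 and 7.78 FPKM) and Nfkbiz (9.01 and 12.8 FPKM) were lower, and Nfkbia was higher (34.1 and 26.7 FPKM). Of 8 complement and acute phase genes 5 were higher and 3 lower (62.5% and 37.5%, beside 14.6% and 14.0% of all genes tested). C3 (1.27 and 0.426 FPKM), C1ra (1.20 and 0.446 FPKM) and C1s (1.32 and 0.535 FPKM) were higher at low levels. Each of them reached 1 FPKM only in JNK-deficient cells, so the level rule admitted them through the genotype where they were higher. Ifit3 (291 and 213 FPKM) and Gbp2 (31.4 and 22.9 FPKM) stood at the top of the interferon-induced genes. Of 28 such genes, 6 were higher and 2 lower (21.4% and 7.14%, beside 14.6% and 14.0% of all genes tested). Their median log2 fold change was 0.10 in attached cells and -0.80 in suspended cells, where 20 of the 28 were lower and 0 higher; the difference between the states was not tested.

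Of 79 cytosolic ribosomal protein genes 0 were called, with a median log2 fold change of -0.01. Of 75 oxidative phosphorylation genes of the nuclear genome 2 were higher and 0 lower, and of 31 proteasome genes 0 were higher and 1 lower. The shares of these 3 lists lay under the 28.6% of all genes tested. Of 8 entries on the mitochondrial genome, 5 were lower and 1 higher. Of 19 nucleoporin genes 9 were lower and 0 higher (47.4% lower, beside 14.0% of all genes tested). The nucleoporin set was picked after the values were seen, from 270 families grouped by the stem of their symbol.

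**Figure D3:**
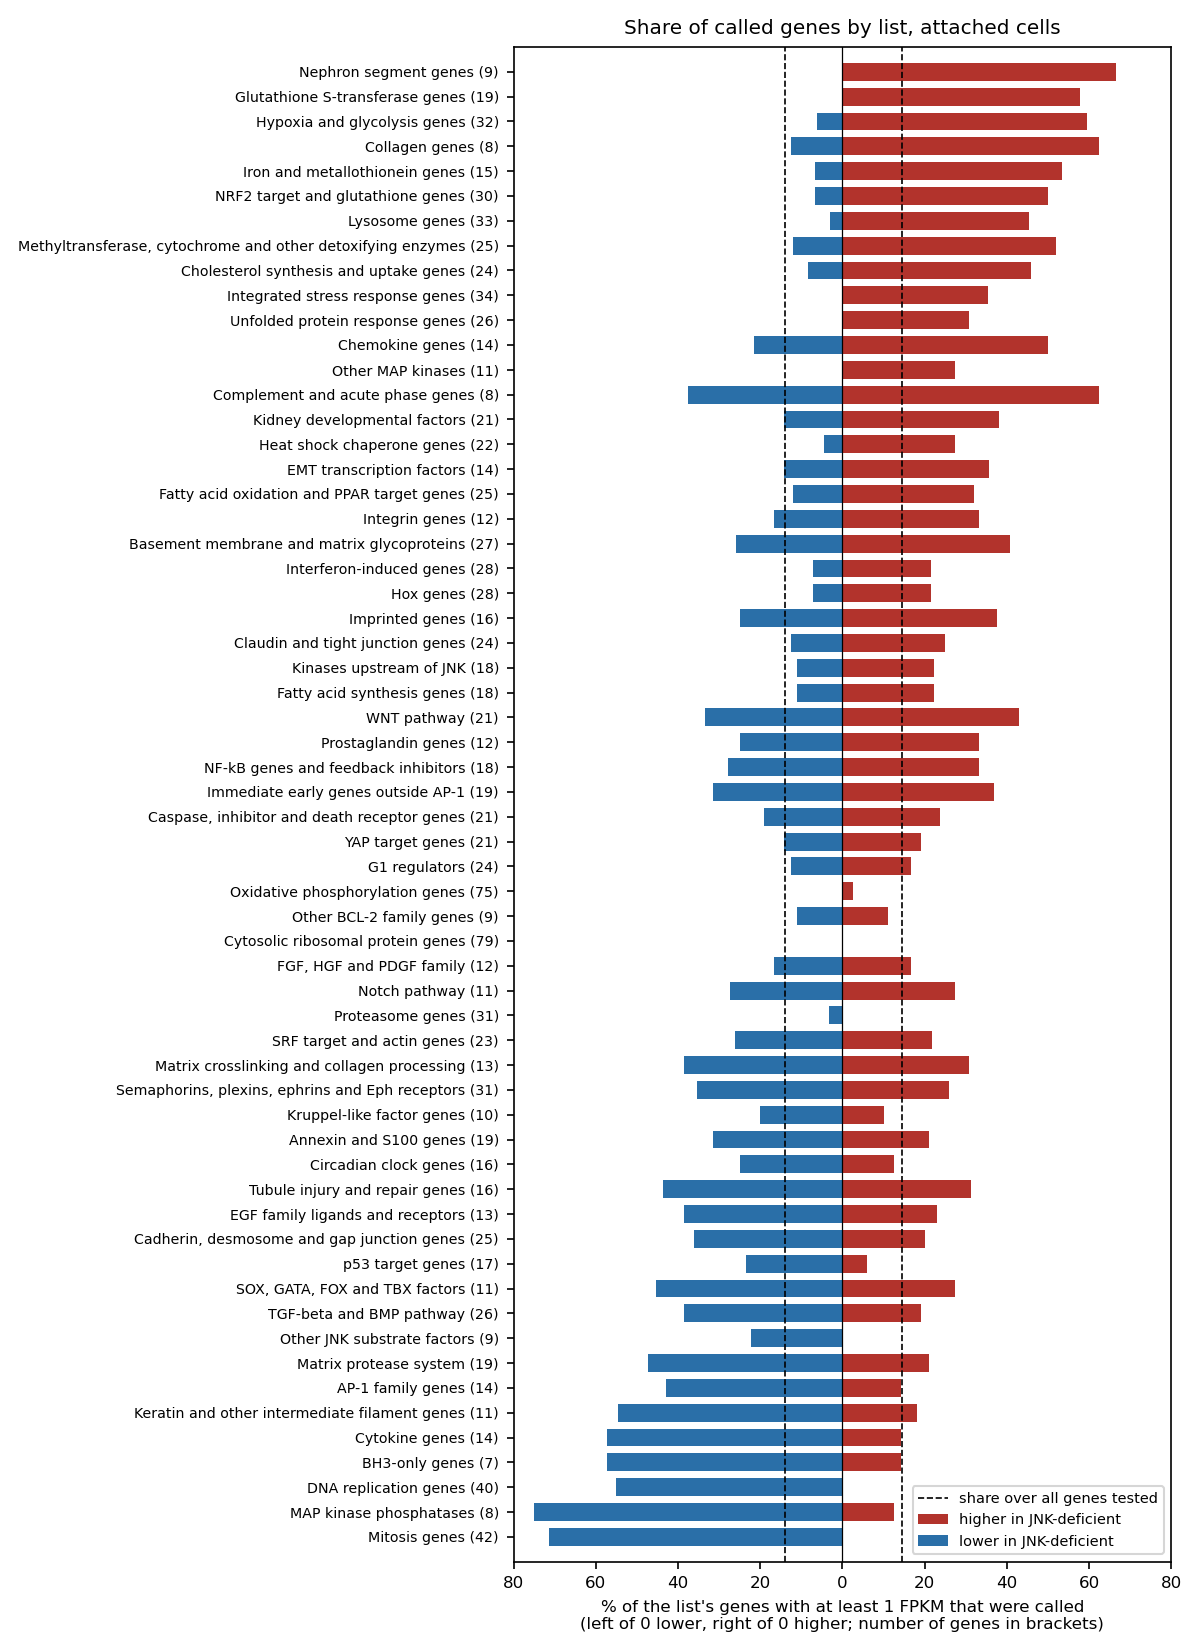
Percentage of genes called higher (red, to the right) and lower (blue, to the left) in attached JNK-deficient cells for each list with at least 7 genes of 1 FPKM or more; the number of genes is in brackets and lists are ordered by the difference of both shares. Dashed lines mark the shares over all genes tested, 14.6% higher and 14.0% lower. Nephron segment genes (66.7% higher) stand at the top and mitosis genes (71.4% lower) at the bottom, and ribosomal protein genes have no bar. Umod and Kcnj10 of the nephron list reach 1 FPKM only in JNK-deficient cells.

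The suspended comparison of the same genotypes used other samples and measured the same genes in another culture state. The labels do not say whether attached and suspended samples came from the same isolates, so a difference between isolates could recur in both. Of 11535 genes tested there, 1402 were called (12.2%), 671 higher (5.82%) and 731 lower (6.34%). Over all 11803 genes, 1403 were called in suspension, and 995 of them were called the same way in attached cells, which is 70.9% of the suspended calls and 29.6% of the attached calls. Opposite calls were found for 29 genes. Of the genes at least 2-fold lower in attached cells, 132 of 194 (68.0%) were called lower again and 0 higher. Of those at least 2-fold higher, 125 of 221 (56.6%) were called higher again and 3 lower. Across 11690 genes the fold changes of both states correlated with r = 0.65 (Pearson) and rho = 0.53 (Spearman), given as a description since genes are not independent replicates.

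Most of the named genes kept their direction in suspension. Of the 20 largest falls, 15 were called lower again, among them Fbln2 (log2 -4.87 in suspended cells), Havcr1 (log2 -4.66), Dusp8 (log2 -4.38) and Fn1 (log2 -3.60). Of the 20 largest rises, 15 were called higher again, among them Inmt (log2 3.28), Upk3b (log2 2.99), Muc20 (log2 2.67) and Cldn10 (log2 2.25). Other differences were not found in suspension. Fst was at 1.35 FPKM in suspended JNK-deficient and 1.37 FPKM in suspended control cells (log2 -0.03), Cdkn1c had a log2 fold change of -0.01, Setd4 of -0.41 and Adamts1 of -0.30, none of them called. The difference between the states was not tested for any of these genes.

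Of the 29 opposite calls, 28 were higher in attached and lower in suspended JNK-deficient cells. Ddx5 was at 3378 FPKM in suspended JNK-deficient and 7836 FPKM in suspended control cells (log2 -1.21), against a log2 fold change of 1.54 in attached cells. Ccl20 was at 17.4 and 30.7 FPKM in suspension (log2 -0.82, against 1.61), Cxcl3 at 0.631 and 8.23 FPKM (log2 -3.70, against 0.69) and the adhesion molecule gene Icam1 at 3.86 and 14.8 FPKM (log2 -1.94, against 0.49). Calcb (log2 -3.09, against 0.59), Acta2 (log2 -2.92, against 0.49) and the prostaglandin receptor gene Ptger3 (log2 -1.04, against 1.28) belonged to the same group. Ptgr1, a prostaglandin reductase, was the single gene lower in attached (1.5 FPKM in JNK-deficient and 2.80 FPKM in control cells) and higher in suspended cells (20.7 and 9.47 FPKM). These genes were chosen by their values, so the group gets no test.

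**Figure D4:**
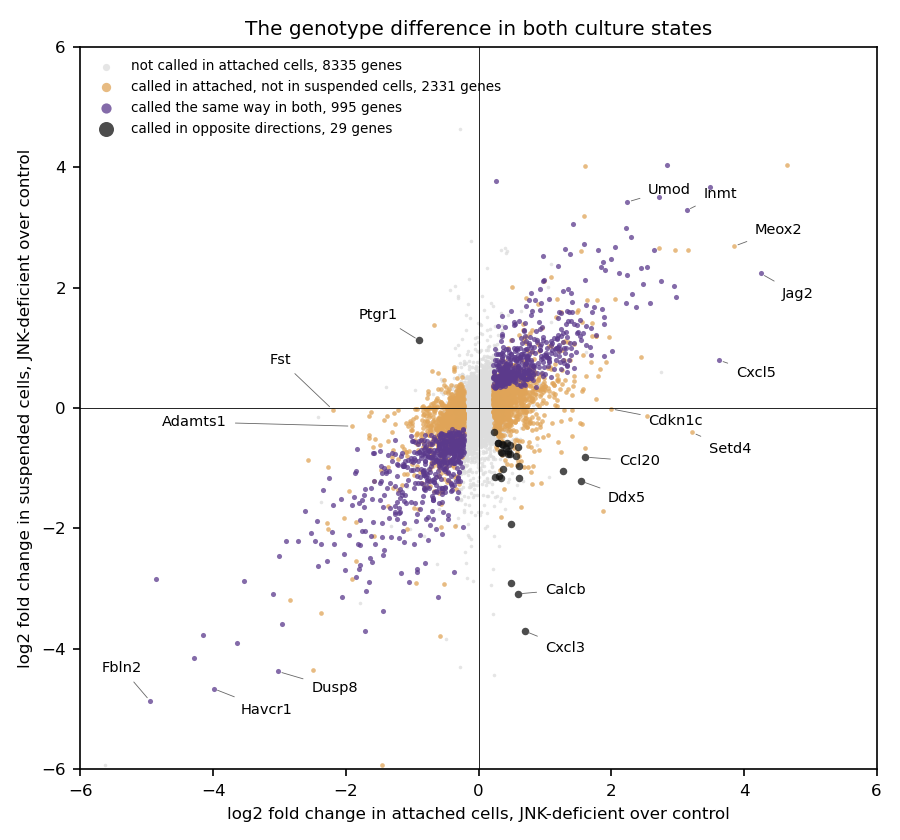
Log2 fold change, JNK-deficient over control, in suspended cells (vertical axis) against that in attached cells (horizontal axis); each point is a gene. Purple points were called the same way in both states (995 genes), orange points in attached and not in suspended cells, black points in opposite directions (29 genes), and 1 gene lies outside the plotted range. Most large attached differences lie near the diagonal, and black points fall almost wholly at the lower right.

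Because alleles travel with the chromosome around them, the genes near both targeted loci were looked at by distance. Within 5 Mb of Mapk9 on chromosome 11, 29.6% of 71 genes were called, and 7.04% were called with at least 2-fold, against 2.69% of the 854 genes more than 10 Mb away on the same chromosome. All 8 genes within 10 Mb with such a difference were lower, among them Havcr1 (3.11 Mb before Mapk9), its relative Timd2 (3.18 Mb before), Anxa6 (5.14 Mb after) and Galnt10 (7.84 Mb after). Timd2 was at 0.293 FPKM in JNK-deficient and 1.51 FPKM in control cells (log2 -2.37). Flt4, the VEGF receptor gene closest to Mapk9 among those named, was at 8.76 and 15.6 FPKM (log2 -0.83). Within 5 Mb of Mapk8 on chromosome 14, 43.8% of 48 genes were called and 10.4% with at least 2-fold, against 35.0% and 7.25% of the 331 genes farther than 10 Mb. There the larger differences ran both ways, with Chdh (35.3 and 17.1 FPKM) and Il17rb (log2 1.16) higher and Ogdhl (log2 -2.47) lower. Over all 11803 genes, 28.5% were called and 3.52% were called with at least 2-fold. The genes of chromosome 14 farther than 10 Mb from Mapk8 thus lay above both shares as well. Those of chromosome 11 farther than 10 Mb from Mapk9 lay below both. The windows hold few genes, no test of position was made, and linked sequence differences and effects of JNK cannot be told apart with these samples.

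**Figure D5:**
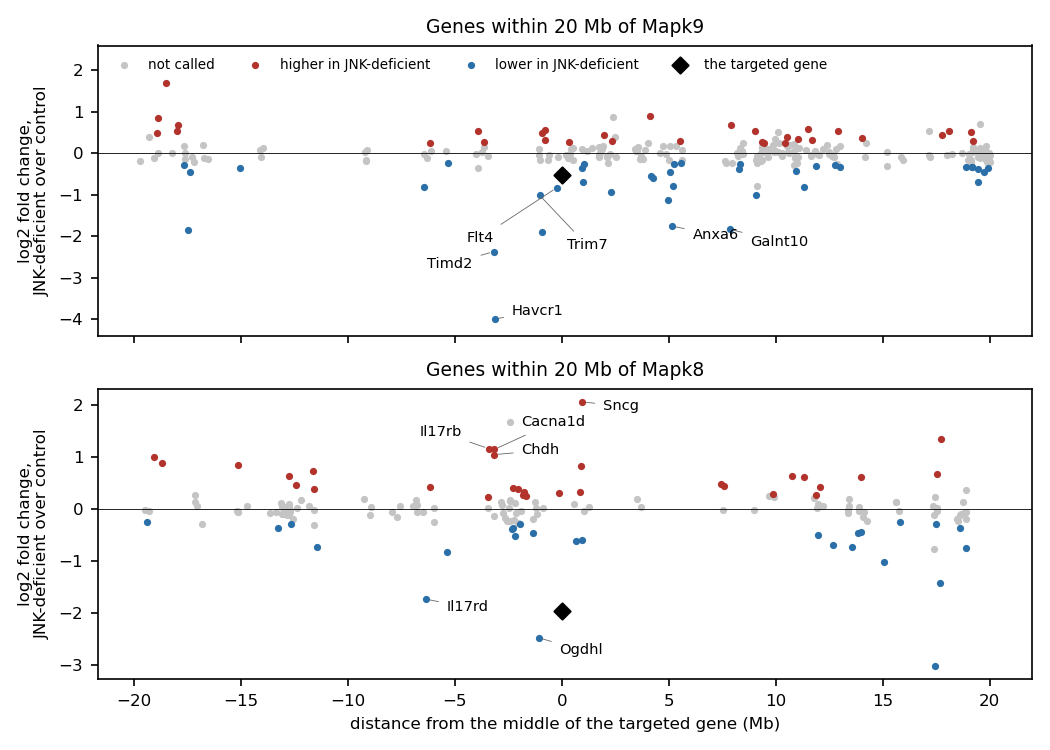
Log2 fold change in attached cells, JNK-deficient over control, of genes within 20 Mb of Mapk9 (top) and Mapk8 (bottom), against the distance of their middle from the middle of the targeted gene in Mb. Red genes are higher, blue genes lower and grey genes not called, and the black diamond is the targeted gene itself. Havcr1 (-3.99) and Timd2 (-2.37) lie side by side left of Mapk9, and Ogdhl (-2.47) lies just left of Mapk8.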

How the data were processed

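Messenger RNA of mouse kidney epithelial cells was measured in 4 groups of 3 samples (JNK-deficient and control, attached and suspended). Per the submitters' processing notes, TopHat, Bowtie, Cufflinks 1.0.3, Cuffdiff and the mm10 build were used. The authors deposited 1 FPKM value per gene and group, with a p-value and q-value per comparison, so the main test is the authors' own. The labels do not say whether replicates came from separate animals or cultures, so the q-values measure only the spread between these samples.

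Genes with at least 1 FPKM in 1 attached genotype were kept, and log2 fold changes were computed from the deposited FPKM values without a pseudocount. The named genes are both targets, the 20 largest called rises and falls with at least 5 FPKM in 1 genotype and 0.5 FPKM in the other, the 10 near-absent genes (below 0.5 FPKM) of each genotype with the highest level in the other, and the 10 largest FPKM gains and losses, leaving out predicted genes, small RNAs and pseudogenes; from each list, up to 4 called genes with the largest fold change and any whose role a sentence needs. The members and lists were chosen with earlier results of these data known. Only the step that adjusts p-values and calls genes was tested, on made-up p-values. Python 3.11.15, pandas 2.3.3, scipy 1.17.1 and matplotlib 3.10.9 were used. Alternatives were other level minimums, q-value thresholds, fold minimums, pseudocounts and centring. Some genes that the naming rule selects are not reported here.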

Additional observations from a re-analysis of the deposited data

How the results depend on the processing

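No paired analysis was possible because the deposited tables hold 1 value per group and no per-sample values. For the same reason, leaving out a replicate was not run. The 3364 calls were 3737 with no minimum level, 3632 at 0.5 FPKM, 2461 at 5 FPKM, 2457 at a q-value below 0.01 and 3362 when adjusted over the genes kept. Requiring 1.5-fold left 1090 (597 higher, 493 lower), and 2-fold left 415 (221 higher, 194 lower). At a q-value below 0.01, 880 of the 1403 suspended calls and 640 of the 995 calls shared by both states were left; fewer genes pass by construction. Among 148 list counts, 28 moved by over 1.5 times at 5 FPKM, 18 at a q-value below 0.01 and 6 with no minimum. With a pseudocount of 1, 9 of 72 list medians moved by 0.1 or more on the log2 scale. The 80 named genes kept their direction with a pseudocount of 1 and after centring, but this outcome was fixed in advance. Adding 1 to both values cannot change the sign of a fold change. Centring subtracted a median of -0.0034, while the smallest called fold change was 0.21 in size. Depth per sample is unknown, which limits what the weakest genes can show.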

Other observations

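Gene families grouped by the stem of their symbol, a grouping chosen after the values were seen, gave further sets beside the nucleoporin genes. Of 270 such families with at least 6 genes, 20 had at least 40% of their genes higher and 18 at least 40% lower. The sets below were picked from those 20 for their shares, against 14.6% higher over all genes tested. Of 23 histone entries, 13 were higher and 1 lower in JNK-deficient cells, among them the linker histone gene Hist1h1c at 263 FPKM in JNK-deficient and 152 FPKM in control cells (log2 0.79). Histone genes have near-identical copies, so their values are uncertain. Of 16 myosin genes 7 were higher and 1 lower, with Myo5b (log2 0.59) and Myo3b (log2 0.51) among the higher. Of 6 Gbp genes 4 were higher and 0 lower. The Gbp gene Gbp2 also stands among the interferon-induced genes above.

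Among genes of prostaglandin synthesis and response, the synthase gene Ptgds was at 28.4 FPKM in JNK-deficient and 9.24 FPKM in control cells (log2 1.62) and Ptgs1 at 15.7 and 9.07 FPKM (log2 0.79), while Ptgs2, the inducible cyclooxygenase, was at 8.18 and 12 FPKM (log2 -0.55). Of 16 clock genes 4 were lower, among them Nfil3 (log2 -1.07), and 2 were higher, Nr1d1 (log2 0.64) and Per2 (log2 0.66). Imprinted genes differed both ways: Peg3 was at 16.7 and 41.0 FPKM (log2 -1.30), and Ndn at 61.9 and 23.3 FPKM (log2 1.41). The small heat shock protein genes Hspb1 (19.4 and 60.4 FPKM, log2 -1.64) and Cryab (log2 0.97) differed in opposite directions.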
